A study of Mus musculus with 6 samples.

Results

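Potassium channel genes were taken as all symbols that begin with Kcn followed by at least 1 lower-case letter and, in all but Kcnrg, a number, without the imprinted transcript Kcnq1ot1. These were 86 of the 17006 genes in the tables. By family they comprised 38 voltage-gated subunits, 13 inward rectifiers, 11 two-pore channels, 8 calcium-activated channels (counting the related sodium-activated ones), 14 auxiliary subunits and 2 antisense transcripts, Kcnd3os and Kcnmb4os1, which encode no channel. The auxiliary count includes Kcne1l, which its deposited description calls a pseudogene. They were measured by bulk RNA sequencing of primary neural stem cells cultured from the subventricular zone, the germinal layer beside the lateral ventricles, of C57BL/6 mice. The young group was 2 months old and the aged group 15 to 18 months old, with 3 libraries each, no transgene and no treatment named in the labels. Pieces of the zone from 5 mice were joined before dissociation and the stem cells then grown in proliferation medium, so the values describe cultures from pooled animals. Nothing in the labels says whether the 3 libraries of a group came from separate cultures, so p-values measure the spread between these libraries, which may be technical.

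Potassium channels let potassium leave or enter the cell along its gradient and so set the resting membrane potential and the return of the membrane after depolarization. Voltage-gated channels are tetramers of alpha subunits that open on depolarization. Inward rectifiers and two-pore channels carry the resting conductance, which is large in astrocytes and radial glia, and calcium-activated channels couple the potential to intracellular calcium. Auxiliary subunits carry no current themselves and change the trafficking or gating of the alpha subunits. In neural progenitors, potassium channels have been studied for their part in proliferation and in the change of membrane potential during differentiation.

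Values are FPKM, fragments per kilobase of transcript scaled to library size, so levels may be compared between genes. Whole-read steps among low values placed the libraries at about 5230000 to 5480000 counted reads. The stem cell markers Sox2, Nes, Vim and Fabp7 were high in all 6 libraries (Sox2 165.0 to 185.6 FPKM). Those of microglia and endothelium were at most 3.69 FPKM (Cd68). The endothelial list summed to 1.80 to 2.95 FPKM in young libraries and 2.98 to 3.25 in aged ones. Its gene Egfl7 lay at 1.25 to 1.72 and 2.42 to 2.71 FPKM (limma adjusted p = 0.147). The other endothelial markers in the tables averaged under 1 FPKM and overlapped between ages. Fibroblast markers were low and also moved with age. The 4 of 5 in the tables summed to 0.35 to 0.58 FPKM in young libraries and 2.68 to 3.72 in aged ones. Among them Col1a1, a fibrillar collagen gene, rose with age, at 0.31 to 0.54 FPKM in young libraries and 2.04 to 2.81 in aged ones (limma adjusted p = 0.0107). Col1a2 lay at 0 to 0.04 and 0.54 to 0.75 FPKM, Col3a1 at 0 to 0.06 and 0.10 to 0.16 FPKM, and Dcn was listed at 0 in every library but young 3 (0.10 FPKM). The part of fibroblasts and endothelial cells in the changes of Kcnc4 and Kcnip3 given here was not tested.

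Age was compared by limma with a trend on log2(FPKM + 1) over the 11912 genes whose mean FPKM was 1 or more. Of the members, 33 reached that mean and 53 did not. Among the 33, the Kv3 subunit gene Kcnc4 fell in aged cells and Kcnip3, a calcium sensor that binds Kv4 channels, rose (limma adjusted p under 0.05). The background over all genes tested was 0.722% called in either direction, 0.327% higher and 0.395% lower. At an unadjusted p under 0.05, 3 members were higher and 4 lower, or 21.2% of the 33, beside 11.9% of all genes tested (6.3% higher and 5.55% lower). Values of the 2 ages did not overlap for 10 of the 33 members (30.3%), 5 in each direction, beside 17.6% of all genes tested (8.98% higher and 8.58% lower). All 7 members with an unadjusted p under 0.05 were voltage-gated alpha subunits or the KChIP sensors that bind them. Tested members numbered 3 inward rectifiers, 4 two-pore and 4 calcium-activated channels, and 0 of these 11 had an unadjusted p under 0.05. Whether classes differed in their response was not tested. The median log2 change of the 33 members was -0.0097, beside 0.0027 for all genes tested, and the median absolute log2 change was 0.11, beside 0.070. The 33 members were also lower in level, with a median of 5.965 FPKM beside 12.47 for all genes tested. The part of level in the differences from all genes was not tested.

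The sequences upstream of Kcnip3 are shown because this called gene has several starts. Each is the 250 bases before a transcript start, 5′ to 3′ on the gene's strand, from RefSeq on GRCm38.p6, and capitals mark a GC box, the letters GGGCGG or their reverse complement. Of 3 starts, the most upstream (minus strand, chr2:127522095-127522344) and the most downstream (minus strand, chr2:127482500-127482749) are given. A gene-level FPKM does not tell which start was used.
Kcnip3, upstream start: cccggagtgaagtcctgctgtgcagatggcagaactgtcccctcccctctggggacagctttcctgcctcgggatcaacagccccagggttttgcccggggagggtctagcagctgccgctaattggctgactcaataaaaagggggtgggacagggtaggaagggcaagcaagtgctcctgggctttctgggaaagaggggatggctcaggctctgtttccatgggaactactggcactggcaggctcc
Kcnip3, downstream start: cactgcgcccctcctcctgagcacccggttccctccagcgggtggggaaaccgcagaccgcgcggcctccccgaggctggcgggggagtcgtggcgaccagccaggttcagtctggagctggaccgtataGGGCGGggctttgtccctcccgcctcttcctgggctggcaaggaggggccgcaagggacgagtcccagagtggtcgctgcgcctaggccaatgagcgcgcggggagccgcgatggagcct
The upstream sequence held 4 CpG dinucleotides and 0 GC boxes, and the downstream one 23 CpG and 1 GC box. RefSeq sequences were matched for 62 of the 86 members (84 starts). A GC box on either strand was found before 37 of these 84 starts (44.0%), beside 32.7% of 32851 starts of all genes. The TATA letters TATAAA were found before 3.57% of the members' starts and 12.4% of all starts, and the E-box CACGTG before 7.14% and 6.02%. The members' sequences had a median GC content of 58.8%, beside 52.4% for all starts, and a median of 7 CpG beside 6. The part of base content in the motif shares was not tested. No motif searched contains another. These are matches of letters and show no factor at these sites.

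**Figure D1:**
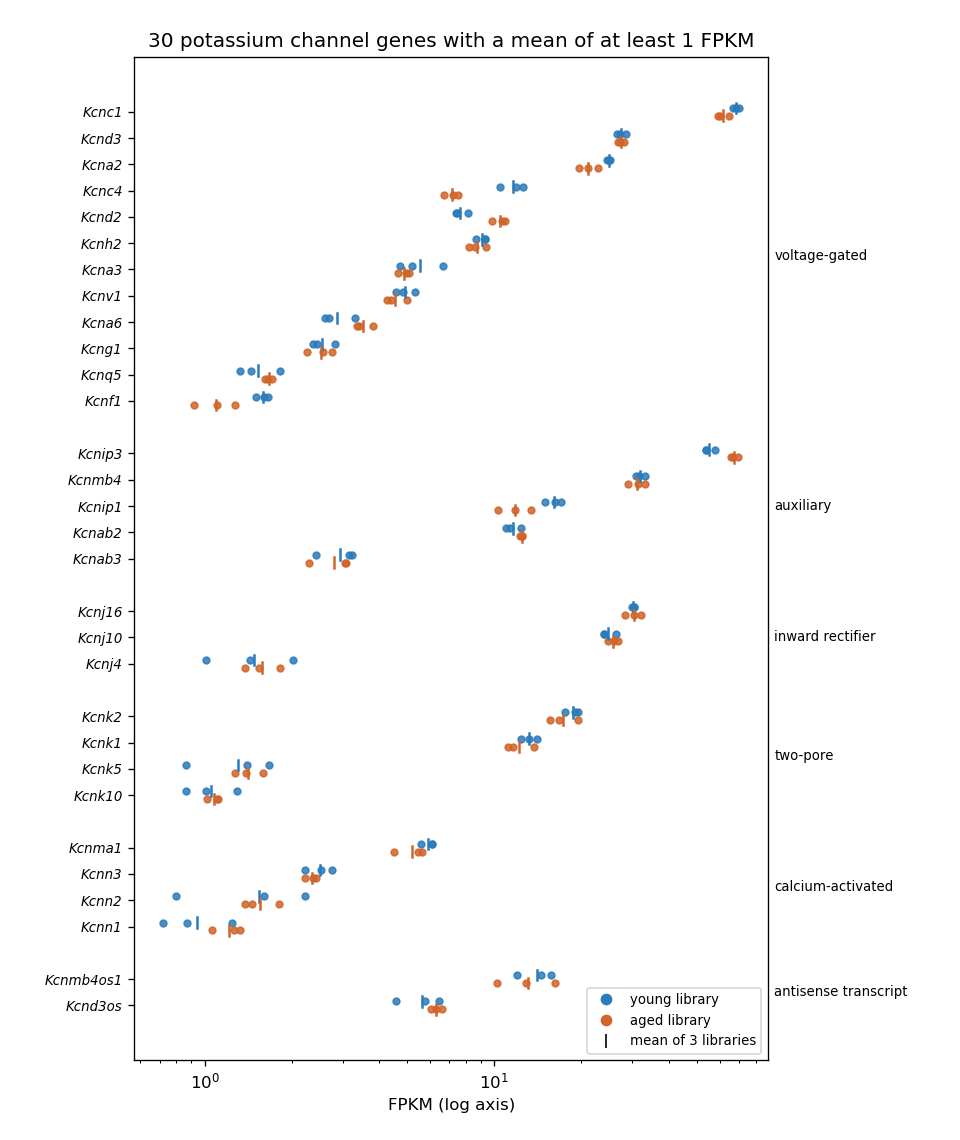
FPKM (horizontal log axis) of 30 of the 33 members with a mean of at least 1 FPKM, by class and in order of mean level. Each point is 1 library (blue young, orange aged) and ticks are means of 3 libraries. Kcnc1 and Kcnip3 stood highest, above 50 FPKM in every library, and the points of the 2 ages are apart for Kcnc4, Kcnip3, Kcnd2, Kcnip1 and Kcna2, among others.

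The voltage-gated class was the largest by summed level, at 43.4% to 44.2% of the members' FPKM in young and 40.5% to 42.2% in aged libraries. Its 38 genes summed to 189.5 to 194.1 FPKM in young libraries and 175.6 to 183.5 in aged ones. The sum over all 86 members was 435.7 to 438.9 FPKM in young libraries and 428.1 to 435.3 in aged ones. The 7 members of highest mean, Kcnc1, Kcnip3, Kcnmb4, Kcnj16, Kcnd3, Kcnj10 and Kcna2, made up 58.6% to 62.3% of that sum per library. Of the 38 genes, 15 were tested, of which 1 fell (Kcnc4), 0 rose and 14 did not pass the adjusted threshold.

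Among the Kv3 (Shaw) subunits, which form fast delayed rectifiers and A-type channels that repolarize cells at high rates, Kcnc1 was the highest of all members. Kcnc4 (gene 99738, mm10 chromosome 3, 107438298 to 107460287) encodes a Kv3 subunit of fast-inactivating current. It lay at 12.53, 11.91 and 10.49 FPKM in young and 7.51, 6.69 and 7.22 FPKM in aged libraries. Every aged library was below every young one, and about 232 reads per young library stood against 138 per aged one. The means were 11.6 ± 1.05 and 7.14 ± 0.416 FPKM (SD, n = 3 each), a ratio of 0.613. The log2 change was -0.63 ± 0.08 (SE; limma adjusted p = 0.0128). The call was lost with the replicate number as a block (limma adjusted p = 0.0643), without limma's trend (0.0686) and without young 1 (0.0609), young 2 (0.0660) or aged 3 (0.0501).

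Kcnc1, the gene of a Kv3 subunit typical of fast-spiking neurons, lay at 66.60, 68.23 and 70.14 FPKM in young and 59.17, 64.93 and 60.18 FPKM in aged libraries. The ages did not overlap, but the change did not pass (log2 change -0.15 ± 0.05 SE, limma adjusted p = 0.231). Kcnc2 was listed at 0.17 FPKM or less in every library. Within the family's summed FPKM, Kcnc4 made up 13.7%, 12.97% and 11.2% in young and 9.49%, 8.05% and 9.19% in aged libraries, so its share was lower in all 3 aged libraries. Of 14 tested genes within 500 kb of Kcnc4, the Kv1 gene Kcna2 was lower and Lamtor5, which encodes a subunit of the lysosomal Ragulator complex, was higher at an unadjusted p under 0.05. The other 12 met neither, and the median log2 change of the 14 was -0.03. Over all genes tested, 6.3% were higher and 5.55% lower at that unadjusted p.

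**Figure D2:**
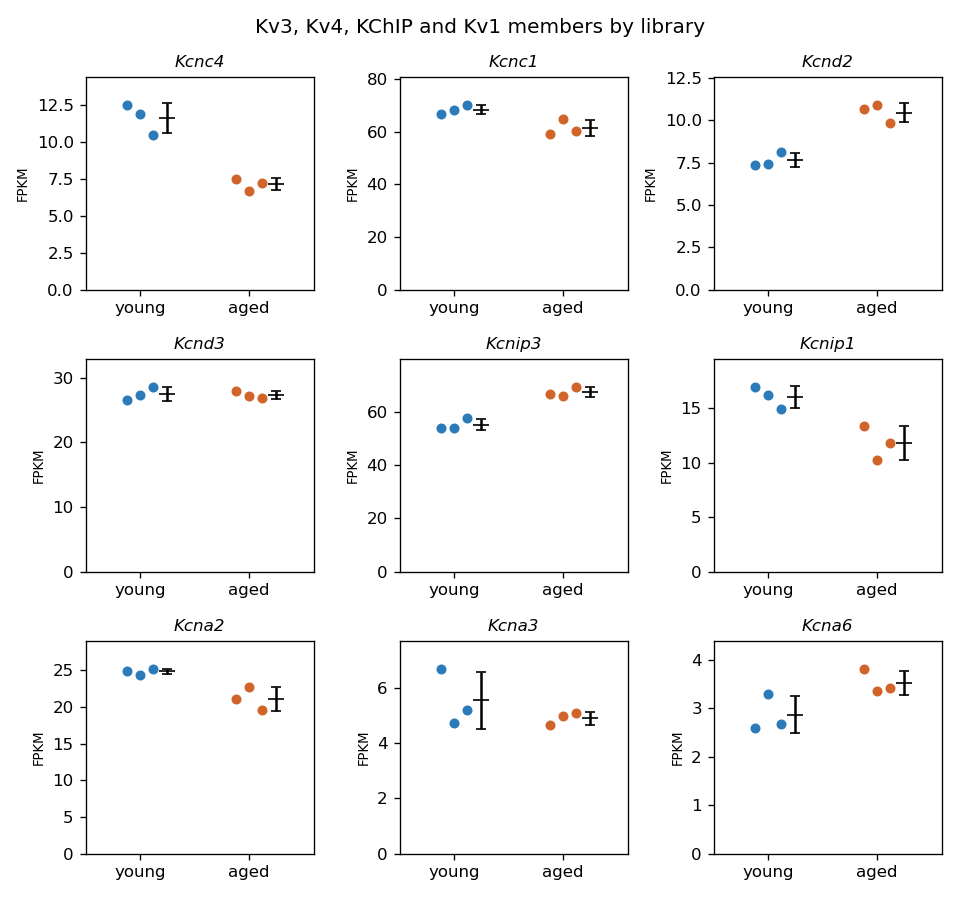
FPKM (vertical axes from 0) of 9 voltage-gated and KChIP genes in each library, young in blue and aged in orange, with the mean and SD of 3 libraries as black bars. Kcnc4 and Kcnip1 are lower and Kcnd2 and Kcnip3 higher in all 3 aged libraries, whereas Kcnd3 and Kcna3 overlap.

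Kv4 (Shal) channels carry the transient A-type current and are built as complexes of Kcnd alpha subunits, KChIP calcium sensors (Kcnip genes) and DPP membrane partners. Kcnip3 (gene 56461, mm10 chromosome 2, 127456498 to 127522094), also known as DREAM or calsenilin and described as a calcium-regulated transcriptional repressor too, was the most abundant of the sensors. It lay at 54.05, 53.83 and 57.64 FPKM in young and 66.79, 65.95 and 69.37 FPKM in aged libraries, with no overlap. The means were 55.2 ± 2.14 and 67.4 ± 1.78 FPKM (SD, n = 3 each), a ratio of 1.22, and about 603 and 715 reads per library. The log2 change was 0.28 ± 0.04 (SE; limma adjusted p = 0.0239). The call was lost with the replicate number as a block (limma adjusted p = 0.0668), without the trend (0.136) and without any 1 library other than young 3 (0.0549 to 0.119).

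Kcnip1, the other sensor above the filter, went the opposite way, at 16.95, 16.19 and 14.94 FPKM in young and 13.40, 10.27 and 11.80 FPKM in aged libraries. The ages did not overlap, and the change did not pass over all genes (log2 change -0.41 ± 0.09 SE, limma adjusted p = 0.115). The ratio of Kcnip3 to Kcnip1 within a library was 3.19, 3.32 and 3.86 in young and 4.98, 6.42 and 5.88 in aged libraries. This ratio does not depend on the scaling of a library. Because Kcnip3 was higher and Kcnip1 lower without overlap, it had to be higher in each aged library than in any young one. It is therefore no separate result. Kcnip2 ranged from 0.32 to 0.81 FPKM in young libraries and from 0.74 to 1.39 in aged ones, and Kcnip4 lay at 0.17 to 0.42 FPKM in all 6, both under the filter.

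Of the Kv4 alpha subunits, Kcnd3 was the most abundant, and neither it nor Kcnd2 passed the adjusted threshold. Kcnd2 (gene 16508, mm10 chromosome 6, 21215346 to 21729805) lay at 7.37, 7.44 and 8.13 FPKM in young and 10.68, 10.92 and 9.82 FPKM in aged libraries. The ages did not overlap, and the log2 change of 0.41 ± 0.07 (SE) stood at a limma adjusted p of 0.0536, just outside the threshold. It was inside the threshold with a pseudocount of 0.1 (0.0479), a filter at 5 FPKM (0.0436), quantile normalization (0.0458) or limma's robust option (0.0458), and outside it in the 12 other alternatives (0.184 with the replicate block). Kcnd3 lay at 26.54, 27.25 and 28.55 FPKM in young and 27.96, 27.20 and 26.83 FPKM in aged libraries, with a 95% interval of the log2 change from -0.12 to 0.11. The Kcnd2 share of the family's summed FPKM was 21.3%, 21.1% and 21.8% in young and 27.3%, 28.3% and 26.2% in aged libraries. Kcnd1 stayed at 0.48 to 0.76 FPKM. Dpp6, the DPP partner above the filter, lay at 7.33, 6.22 and 5.71 FPKM in young and 7.71, 8.09 and 7.72 FPKM in aged libraries, without overlap (log2 change 0.26 ± 0.09 SE, limma adjusted p = 0.315), and Dpp10 stayed at 0.20 FPKM or less.

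Because Kv4 subunits are also expressed by neurons and by cells of the oligodendrocyte lineage, the markers of these cells are given beside them. Of 7 neuron markers, 4 had a mean of at least 1 FPKM, and 0 passed the adjusted threshold. Snap25 ranged from 2.66 to 3.26 FPKM in young libraries and from 3.68 to 5.22 in aged ones, and Tubb3 lay at 8.83 to 10.41 and 11.26 to 12.69 FPKM (limma adjusted p = 0.181 and 0.140). Map2, the most abundant of the list, was on the other side with means of 129.8 ± 1.16 and 124.6 ± 4.04 FPKM in young and aged libraries (SD, n = 3 each; limma adjusted p = 0.578) and no overlap, and Syp overlapped at 6.52 to 7.39 and 6.96 to 8.60 FPKM. The list summed to 149.2 to 151.9 FPKM in young libraries and 146.1 to 153.2 in aged ones. Syt1, a synaptic vesicle protein, stayed at 0.31 FPKM or less and Rbfox3 at 0.86 FPKM or less, and the neuroblast gene Dcx lay at 0.29 to 0.39 and 0.46 to 0.80 FPKM.

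Of 8 oligodendrocyte lineage markers, 5 had a mean of at least 1 FPKM, and 0 passed the adjusted threshold. The list summed to 1933 to 1978 FPKM in young libraries and 2040 to 2081 in aged ones. Nearly all of this sum came from Olig1 and Olig2, so it says little about the other markers. Olig2 had means of 538.3 and 555.1 FPKM in young and aged libraries (limma adjusted p = 0.548). The progenitor markers Cspg4 (12.64 to 14.60 and 17.22 to 19.40 FPKM), Pdgfra (1.48 to 1.59 and 1.96 to 2.62 FPKM) and Olig1 (1386 to 1415 and 1462 to 1496 FPKM) did not overlap between ages, with limma adjusted p of 0.0604, 0.309 and 0.148. Of the myelin genes, Mbp lay lower in aged libraries, at 0.56 to 0.89 and 0.29 to 0.43 FPKM, and Mog and Mag were at 0.22 and 0.08 FPKM or less. The 7 astrocyte markers summed to 327.5 to 345.3 FPKM in young libraries and 358.6 to 362.6 in aged ones, mostly from Slc1a3 and Aldoc. Of the 7, 3 were higher and 1 lower at an unadjusted p under 0.05, beside 6.3% and 5.55% of all genes tested. By limma 0 of them passed the adjusted threshold. The part of these cell types in the values of Kcnc4, Kcnip3 and Kcnd2 was not tested. In bulk samples, fewer cells of a type and less RNA per cell cannot be told apart.

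**Figure D3:**
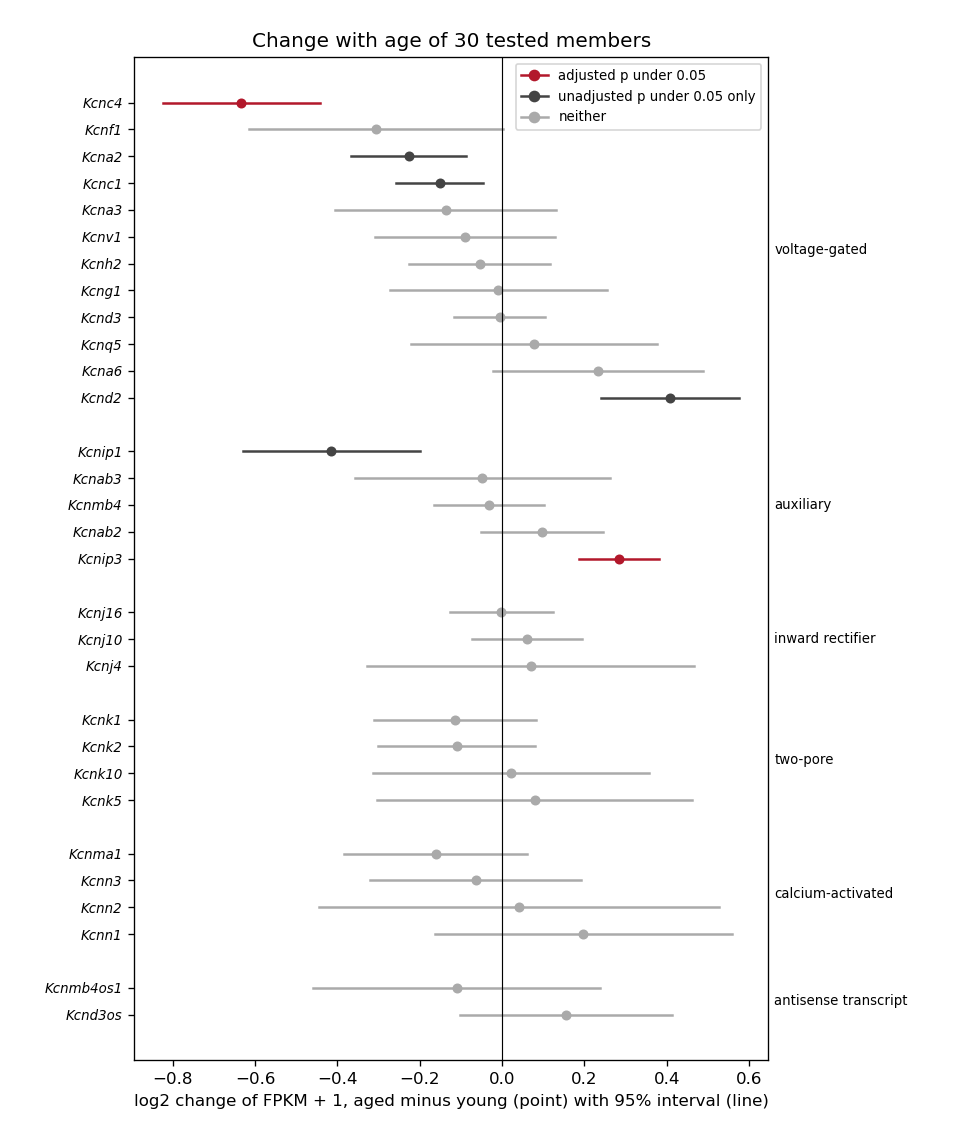
Log2 change of FPKM + 1, aged minus young (horizontal axis, points), with its 95% interval (lines) for 30 of the 33 tested members by class. Red marks an adjusted p under 0.05 (Kcnc4 and Kcnip3), dark grey an unadjusted p under 0.05 only and light grey neither. The intervals of all 11 inward rectifiers, two-pore and calcium-activated channels include 0.

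Kv1 (Shaker) subunits form low-threshold delayed rectifiers of axons and glia. Kcna2, the main one here, lay at 24.95, 24.43 and 25.21 FPKM in young and 21.06, 22.77 and 19.56 FPKM in aged libraries. It was lower in each aged library, but did not pass (log2 change -0.23 ± 0.06 SE, limma adjusted p = 0.182). Kcna6 ranged from 2.60 to 3.30 FPKM in young libraries and from 3.36 to 3.81 in aged ones (limma adjusted p = 0.469). Kcna3, a Kv1 gene 52.8 kb from Kcna2, overlapped between ages at 4.73 to 6.68 and 4.64 to 5.09 FPKM. Kcna10, which lies between Kcna2 and Kcnc4, stayed at 0.20 FPKM or less. The other Kv1 genes Kcna1, Kcna4, Kcna5 and Kcna7 reached at most 0.66 FPKM.

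Among KCNQ subunits, whose currents are non-inactivating and open near rest, Kcnq5 had means of 1.53 and 1.66 FPKM, Kcnq3 lay at 0.19 to 0.51 FPKM, and Kcnq1 was listed at 0 in all libraries but aged 1 (0.06 FPKM). Of the other voltage-gated genes, Kcnf1, a subunit that is silent alone and modifies Kv2 channels, ranged from 1.5 to 1.65 FPKM in young libraries and from 0.92 to 1.27 in aged ones (limma adjusted p = 0.424). The modulatory subunits Kcng1 and Kcnv1 had overlapping values and means of 2.52 to 2.54 and 4.56 to 4.92 FPKM. Kcnh2, the ERG channel known from cardiac repolarization, ranged from 8.18 to 9.39 FPKM, and the 7 other Kcnh genes lay at 0.71 FPKM or less.

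Inward rectifiers were carried by a pair of genes. Kcnj16 and Kcnj10 encode subunits that join into one channel of glia, and Kcnj10 is the main route of potassium uptake by astrocytes. Kcnj16 lay at 30.0, 30.32 and 30.50 FPKM in young and 28.21, 32.15 and 30.48 FPKM in aged libraries, and the aged values enclosed the young ones. Its 95% interval of the log2 change was -0.13 to 0.12. Kcnj10 lay at 23.92, 26.36 and 23.89 FPKM in young and 25.92, 26.86 and 24.66 FPKM in aged libraries (interval -0.07 to 0.19). Together with Kcnj4 (means 1.49 and 1.58 FPKM) they were the 3 of 13 inward rectifiers above the filter. The genomic neighbours were low, with Kcnj9, 11.9 kb from Kcnj10, at 0.17 to 0.51 FPKM and Kcnj2, 38.2 kb from Kcnj16, at 0.53 to 0.85 FPKM. Kcnj2 encodes a strong inward rectifier of excitable cells and endothelium. Kcnj13, typical of choroid plexus, was at 0.14 FPKM in young 1 and listed at 0 in the 5 other libraries. The ATP-sensitive subunit Kcnj11 lay at 0.14 to 0.41 FPKM, with its sulfonylurea receptor partners Abcc8 and Abcc9 at 0.13 FPKM or less.

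Two-pore channels, which pass a leak current at rest, were led by Kcnk2 and Kcnk1. Kcnk2, a channel opened by stretch and lipids, lay at 19.53, 18.95 and 17.55 FPKM in young and 15.61, 16.76 and 19.48 FPKM in aged libraries. Aged 3 stood within the young range and the 2 other aged libraries below it (95% interval of the log2 change -0.30 to 0.08). Kcnk1, a weakly inward-rectifying leak channel of astrocytes, lay at 12.40, 13.17 and 14.07 FPKM in young and 13.71, 11.13 and 11.63 FPKM in aged libraries, with overlap (interval -0.31 to 0.08). Kcnk5 had means of 1.31 and 1.42 FPKM and Kcnk10 of 1.05 and 1.08 FPKM. The 7 other two-pore genes were under the filter, Kcnk3 the highest at 0.57 to 0.88 FPKM.

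Among calcium-activated channels, Kcnma1, the large-conductance (BK) alpha subunit, lay at 5.57, 6.10 and 6.11 FPKM in young and 4.51, 5.47 and 5.65 FPKM in aged libraries. One aged library reached the young range, and the 95% interval of the log2 change was -0.38 to 0.06. Kcnmb4, the BK beta subunit of brain, was several times as abundant as Kcnma1 per length of transcript, at 30.96, 33.07 and 31.71 FPKM in young and 33.28, 31.30 and 29.07 FPKM in aged libraries. The ages overlapped (interval -0.17 to 0.10), and the other beta subunits Kcnmb1 and Kcnmb3 stayed at 0.27 FPKM or less. The small-conductance genes Kcnn3, Kcnn2 and Kcnn1 had means of 2.50 and 2.34, 1.54 and 1.55, and 0.943 and 1.22 FPKM, each with overlap. Kcnn4, the intermediate-conductance channel of red blood cells, was under the filter at 0.27, 0.56 and 0.37 FPKM in young and 0.73, 0.67 and 0.76 FPKM in aged libraries, without overlap but on only about 4.28 and 7.47 reads per library. The sodium-activated genes Kcnt1 and Kcnt2 and the sperm-type Kcnu1 lay at 0.84 FPKM or less.

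Of the remaining auxiliary genes, Kcnab2, a Kv1 beta subunit with the fold of an oxidoreductase, ranged from 10.99 to 12.42 FPKM in young libraries and from 12.32 to 12.51 in aged ones, with overlap (95% interval of the log2 change -0.05 to 0.24). Kcnab3 had means of 2.94 and 2.81 FPKM, and Kcnab1 was listed at 0 in 3 libraries. The genes of the single-span family were low. Kcne1l, which its deposited description calls a pseudogene, ranged from 0.38 to 0.89 FPKM in young libraries and from 0.92 to 1.17 in aged ones. Kcne2 and Kcne4 lay at 0.33 FPKM or less. The antisense transcripts did not pass either. Kcnd3os, which overlaps the start of Kcnd3, had means of 5.61 and 6.32 FPKM, and Kcnmb4os1, which lies within the span of Kcnmb4, had means of 14.1 and 13.1 FPKM. Whether the authors' counting used strand is not given in the sources used here, so reads of these pairs may not have been told apart.

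**Figure D4:**
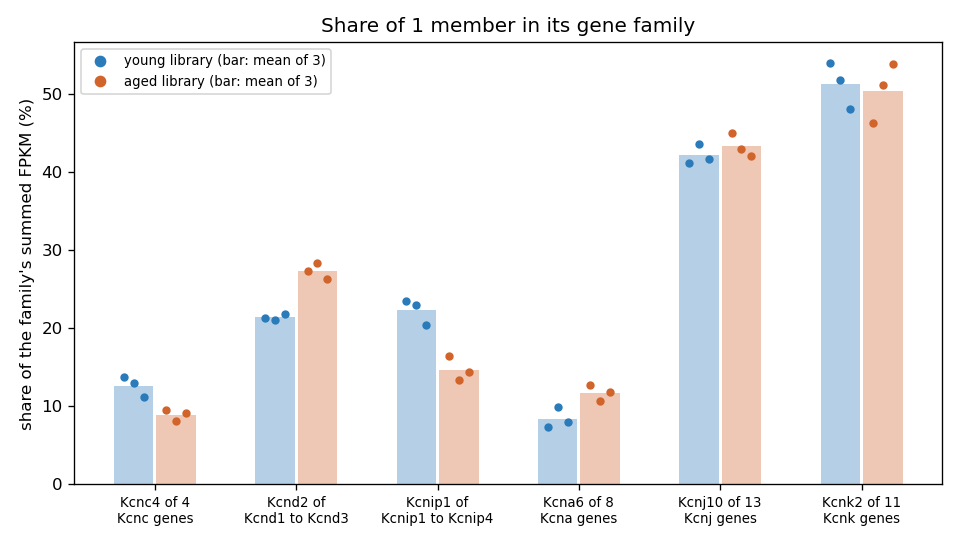
Share of 1 member in the summed FPKM of its gene family (vertical axis, percent, from 0) in each library (points) with the mean of 3 libraries (bars), young in blue and aged in orange. The shares of Kcnc4, Kcnd2, Kcnip1 and Kcna6 do not overlap between ages, while those of Kcnj10 and Kcnk2 do. The members shown were picked with earlier results of these data known, so this contrast reflects that choice.

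The family shares show how the balance of paralogs lay in each library. Kcna6 made up 7.40% to 9.84% of summed Kv1 FPKM in young and 10.6% to 12.7% in aged libraries. Kcna2 made up 70.98% to 74.85% and 67.54% to 72.08% of that sum. Of the Kv3 sum, Kcnc1 made up 72.83% to 74.94% and 74.78% to 78.12%. The shares of Kcna2 and Kcnc1 overlapped between ages although the FPKM of neither gene did. Kcnj10 made up 41.1% to 43.6% and 42.0% to 45.0% of the inward rectifier sum, and Kcnk2 made up 48.1% to 53.8% and 46.2% to 53.8% of the two-pore sum. An exact permutation test of 3 against 3 libraries cannot give a two-sided p under 0.10, so no test is given for these shares.

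The 53 members under the filter are a large part of the group: 38.4% of members had a mean of at least 1 FPKM, beside 70.0% of all genes. They comprised 23 voltage-gated, 10 inward rectifier, 7 two-pore, 4 calcium-activated and 9 auxiliary genes. None was at 0 in all 6 libraries, but neither was any of the 17006 genes listed, so this says nothing particular about these members. Among the 53, 26 were at 0 in at least 1 library and 17 in 3 or more. The highest mean among them was 0.88 FPKM (Kcne1l), and the lowest above the filter 1.07 FPKM (Kcnk10).

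Of 30 accessory, related channel, carrier and scaffold genes, 28 were in the tables and 20 had a mean of at least 1 FPKM. By limma 0 passed the adjusted threshold. At an unadjusted p under 0.05, 2 of the 20 were higher and 2 lower, beside 6.3% and 5.55% of all genes tested. Besides Dpp6, the pacemaker channel gene Hcn2 was at 3.95 ± 0.215 and 4.85 ± 0.568 FPKM (SD, n = 3 each; limma adjusted p = 0.419). The sodium-potassium-chloride carrier Slc12a2 was at 17.6 and 15.7 FPKM (0.352), and the scaffold Dlg1, which anchors Kv1 and inward rectifier channels, at 14.03 and 12.2 FPKM (0.347).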

How the data were processed

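The authors' deposited tables, 1 per library, give an FPKM value per gene with 2 decimals, per the file headers. The submitters' processing notes name mm10, TopHat and Cuffdiff without versions or roles. Annotation, strand setting and scaling between libraries are not given in the sources used here.

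Gene identifiers were matched to RefSeq genes of GRCm38.p6 (16962 of 17006). No count model was used on FPKM. Ages were compared with limma 3.58.1 under R 4.3.3 (lmFit, eBayes with trend, no covariates, 3 young and 3 aged libraries) on log2(FPKM + 1), two-sided, Benjamini-Hochberg over the 11912 genes averaging 1 FPKM or more, at a threshold of 0.05. Log2 changes on this scale understate those of low genes. Estimated reads use GENCODE transcript lengths and the FPKM step of 1 read. Between 3.5 and 10.5 such reads, 46.8% to 62.7% of values were whole numbers to within 0.15, a window that covers 30% of all values, so they are approximate.

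The members and lists were chosen with earlier results of these data known. Named members were those called, in each class the 3 of smallest p and the 3 of highest mean, those without overlap at an unadjusted p under 0.05, and fixed genes, of which Kcnj8 is not analysed here. Other members were named after their values were seen, and some members are not reported here by name. Of the accessory list, the 4 genes of smallest p were named. Alternatives covered pseudocounts of 0.1 and 5, no filter or one at 5 FPKM, 3 scalings, limma's trend and robust options, a replicate block and each library left out. Python 3.11.15, pandas 2.3.3 and matplotlib 3.10.9 were used.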

Additional observations from a re-analysis of the deposited data

How the results depend on the processing

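The count of 1 member lower in aged cells was kept in 11 of 16 alternatives. It was 0 without limma's trend, with the replicate block and without young 1, young 2 or aged 3, a range of 0 to 1 over the fits with 1 library left out. The count of 1 member higher was 2 with a pseudocount of 0.1, a filter at 5 FPKM, quantile normalization or the robust option, where Kcnd2 joined Kcnip3. It was 0 without the trend and with the replicate block, and 0 to 1 with 1 library left out. At an unadjusted p under 0.05, the 3 members higher became 7 and the 4 lower 6 with no filter, where 86 members in place of 33 were tested. Without the trend, both counts became 5. Shares of all genes at that p are not given for these alternatives, so the counts cannot be set against a background. Over all genes, 86 calls became 59 with no filter, 11 without the trend, 22 with the replicate block, and 39 to 70 with 1 library left out. Same-numbered libraries correlated in their deviations from the group means at 0.0080, -0.072 and 0.11. Only number 3 correlated best with its own number in both directions. Deviations from a mean of 3 libraries are tied to one another, so these values cannot decide whether the numbers pair the samples. Changes near 0 turned sign when 1 library was left out, with ranges of the log2 change from -0.029 to 0.022 for Kcnd3, -0.044 to 0.047 for Kcnj16, -0.074 to 0.22 for Kcnj4, -0.069 to 0.19 for Kcnk5, -0.078 to 0.016 for Kcnmb4 and -0.19 to 0.23 for Kcnn2. The directions of the 7 members with an unadjusted p under 0.05 held in every alternative in which each was tested. Their values did not overlap between ages, so leaving out 1 library could not have turned a direction. Most members under 1 FPKM rest on few reads, which limits the precision of their values. The cause of these shifts was not tested.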
